A study of Mus musculus with 17 samples.

Results

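The 10 genes described here mark the hormone-making and germ cells of the ovarian follicle. They are the granulosa cell genes Fshr, Cyp19a1, Foxl2 and Amh, the steroidogenic genes Lhcgr, Star and Cyp11a1, and the oocyte genes Nobox, Gdf9 and Zp3. They were chosen by symbol from the 43629 genes of the deposited count table, as a measure of host ovary in tumours grown from the mouse line ID8, which derives from ovarian surface epithelium. All 10 passed the filter on low counts described with the processing, and each symbol matched a single gene.

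The 17 RNA-seq libraries fell into 8 groups. The orthotopic tumours (n = 3) grew from ID8 cells placed in the bursa of the right ovary, so host ovary could be present in them. The subcutaneous tumours (n = 2, numbered 2 and 3) grew under the skin, with labels that name both the flanks and the scruff. Ascites from animals with orthotopic tumours was drawn at a first tap (n = 3) and at a second tap (n = 3), and tumours on the intestine (n = 3) were metastases. The untreated ID8 cell line, a healthy C57BL6 ovary and a healthy C57BL6 intestine had 1 library each. No genetic change and no drug was named for any group, and no ages of the mice were given. Whether samples shared an animal is not stated, so p-values cover the spread between samples, which may be technical. A comparison with the ovary or the cell line rests on a single library that is assumed to vary like the replicated groups.

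In a growing follicle, theca cells respond to luteinizing hormone and turn cholesterol into androgens, and granulosa cells respond to follicle-stimulating hormone and turn androgens into oestrogens. The oocyte in the centre secretes growth factors to the granulosa cells and builds the zona pellucida, the coat that sperm bind. After ovulation the remaining cells form the corpus luteum, which makes progesterone. Some regulators of granulosa cells, such as Wt1 and Gata4, are also made by the surface cells that cover the ovary.

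Libraries held 12031221 to 38902048 counts (median 27342134). Levels are given in CPM, counts scaled to the library size after TMM normalisation. A count of 0 allowed a level of up to 0.0745 to 0.315 CPM, depending on the library (3 counts, counting error only). The first tap 3, the second tap 1 and the subcutaneous tumour 3 stood apart, with 32775 to 33393 genes with a count, against 21157 to 26838 in the other libraries. Many genes that were at 0 elsewhere had a few counts in these 3 libraries, so the results are also given without them.

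The healthy ovary library carried all 10 genes. It had the highest level of 8 of the 10 genes, and the exceptions were Foxl2 and Star. Measured as a mean of the orthotopic tumours, 7 of the 10 genes were under 4% of the ovary level, while Amh, Foxl2 and Star were at 35.5%, 111% and 329.9%. The ovary library also held 1254 CPM of Ovgp1, a gene of oviduct secretory cells.

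**Figure D1:**
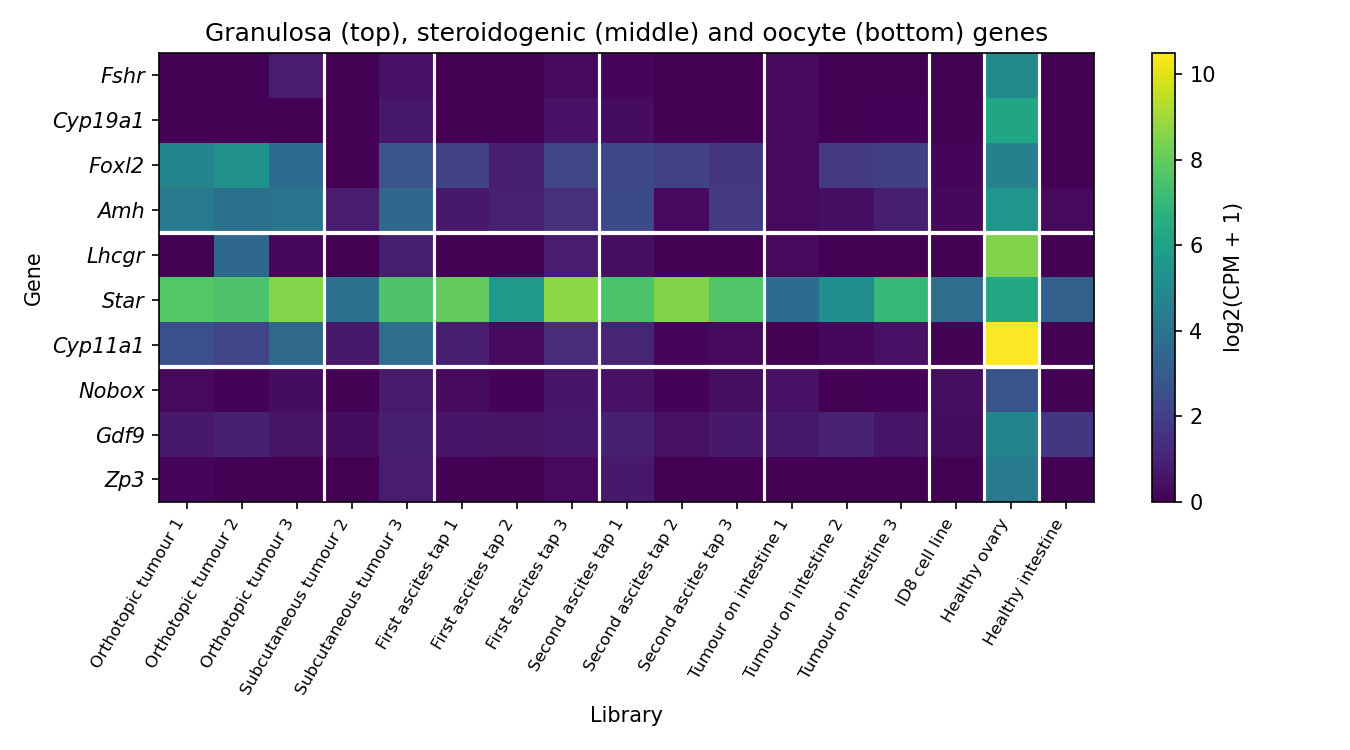
Level of the 10 genes in each of the 17 libraries, as log2(CPM + 1). Columns are libraries by group and rows are genes, with granulosa genes above, steroidogenic genes in the middle and oocyte genes below; the healthy ovary column shows a signal in all 10 rows, and the orthotopic columns mainly for Star, Foxl2 and Amh.

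Promoter windows from RefSeq (GRCm38.p6, 250 bases before to 50 after the gene's start) matched 7 of the 10 genes, all but Star, Amh and Gdf9. Those of 3 genes are printed because they stand for the contrast between the genes: Fshr and Zp3 were near 0 in the tumours, whereas Foxl2 was at the ovary level in the orthotopic tumours. The sequences searched, on both strands, were the E-box CANNTG, the forkhead sequences TGTTTAC and TGTTTGC, the homeobox sequences TAATTG and TAATTA, and the nuclear receptor sequence CAAGGTCA with its shorter form AAGGTCA, which overlaps it. Capitals mark the matches, which are E-boxes and, at the start of the Zp3 window, TGTTTAC on the other strand.
Fshr, chr17:89200626-89200925, minus strand: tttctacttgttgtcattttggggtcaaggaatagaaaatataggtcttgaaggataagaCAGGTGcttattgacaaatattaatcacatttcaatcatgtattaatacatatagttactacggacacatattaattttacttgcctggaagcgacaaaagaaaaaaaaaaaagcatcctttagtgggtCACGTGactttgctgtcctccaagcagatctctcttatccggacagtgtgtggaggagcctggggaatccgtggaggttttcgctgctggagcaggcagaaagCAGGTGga
Zp3, chr5:135979855-135980154, plus strand: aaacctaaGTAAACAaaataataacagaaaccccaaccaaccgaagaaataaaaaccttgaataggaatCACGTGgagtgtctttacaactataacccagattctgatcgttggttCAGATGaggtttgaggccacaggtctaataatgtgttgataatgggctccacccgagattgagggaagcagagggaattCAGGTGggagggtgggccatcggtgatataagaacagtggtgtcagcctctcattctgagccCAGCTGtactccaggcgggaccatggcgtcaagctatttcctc
Foxl2, chr9:98955357-98955656, plus strand: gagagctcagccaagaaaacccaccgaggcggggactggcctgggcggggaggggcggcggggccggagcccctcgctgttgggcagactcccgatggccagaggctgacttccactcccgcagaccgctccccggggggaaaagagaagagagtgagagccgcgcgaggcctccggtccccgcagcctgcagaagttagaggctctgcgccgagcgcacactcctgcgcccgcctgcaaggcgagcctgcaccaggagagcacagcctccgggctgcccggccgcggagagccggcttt
The Fshr window held 3 E-boxes and the Zp3 window held 4, starting at -181, -134, -55 and 7 from the gene's start. E-boxes were common, being in 72.3% of the 32851 promoter windows of the same length, and TGTTTAC was in 3.65%. The Foxl2 window held none of the sequences searched. It was 71.3% G and C with 27 CpG, against medians of 52.7% and 7 CpG over all windows. CAAGGTCA, in 1.56% of all windows, was in none of those of the 7 genes. A match is a description of the letters, not evidence of binding.

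Among the granulosa genes, Fshr, the receptor for follicle-stimulating hormone (ENSMUSG00000032937), had 0.0519, 0.0332 and 0.789 CPM in orthotopic tumours 1, 2 and 3, against 31.9 CPM in healthy ovary and 0 in the cell line. Orthotopic tumour 3 held 30 of the 33 Fshr counts of the 3 tumours. Its summed level was 0.971% of the ovary level (exact 95% interval 0.665 to 1.37%, counting error only). In the other 11 tumour and ascites libraries Fshr ranged from 0 to 0.442 CPM, with a median of 0.

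Cyp19a1, the aromatase that makes oestrogen (ENSMUSG00000032274), had no count in any of the 3 orthotopic tumours or in the cell line, against 2856 counts (70.9 CPM) in healthy ovary. That is at least 2521-fold lower in the orthotopic tumours, with 3 counts over the group as the limit. The highest Cyp19a1 level outside the ovary was 0.589 CPM, in subcutaneous tumour 3. Of the aromatase counts in the other tumour libraries, 12, 11 and 9 were in the subcutaneous tumour 3, the first tap 3 and the second tap 1, the libraries with broad low counts, and 2 tumours on the intestine had 2 counts each.

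Foxl2, a forkhead factor that maintains granulosa identity (ENSMUSG00000050397), had 26.6, 38.4 and 11.9 CPM in orthotopic tumours 1, 2 and 3, against 23.1 CPM in healthy ovary and 0.106 CPM in the cell line. The orthotopic levels lay on both sides of the ovary level and averaged 111 ± 57.4% of it (SD, n = 3). Subcutaneous tumours 2 and 3 had 0 and 5.74 CPM. The first tap had 3.18, 0.831 and 3.56 CPM, the second tap 3.82, 3.09 and 2.17 CPM, and tumours on the intestine 0.21, 2.46 and 2.88 CPM. All 3 orthotopic tumours were above every other tumour and ascites library.

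Amh, the anti-Müllerian hormone of small growing follicles (ENSMUSG00000035262), had 17.9, 13.6 and 15.3 CPM in the orthotopic tumours, against 43.9 CPM in healthy ovary and 0.159 CPM in the cell line. The 3 tumours were close to each other, at 35.5 ± 4.95% of the ovary level (SD, n = 3). Subcutaneous tumour 3 followed with 10.8 CPM, and subcutaneous tumour 2 had 0.782 CPM. Ascites ranged from 0.229 to 4.14 CPM (median 1.33, n = 6), and tumours on the intestine had 0.21, 0.34 and 0.854 CPM. For Amh, too, the 3 orthotopic tumours did not overlap the 11 other tumour and ascites libraries. Over all 22671 genes tested, 2.37% were above and 3.31% below every other tumour library in this way.

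Of the steroidogenic genes, Lhcgr, the luteinizing hormone receptor (ENSMUSG00000024107), had 0.0519, 10.4 and 0.158 CPM in orthotopic tumours 1, 2 and 3, against 367 CPM in healthy ovary and 0 in the cell line. Orthotopic tumour 2 held 313 of the 321 counts, so the mean of 0.964 ± 1.62% of ovary (SD, n = 3) rests on that tumour. Without it the mean was 0.0286% of the ovary level. In the other 11 tumour and ascites libraries Lhcgr ranged from 0 to 0.834 CPM.

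Star, the protein that moves cholesterol into mitochondria (ENSMUSG00000031574), had 213, 187 and 388 CPM in the orthotopic tumours, against 79.7 CPM in healthy ovary and 12.9 CPM in the cell line. All 3 orthotopic tumours exceeded the ovary, at 329.9 ± 137% of its level (SD, n = 3). Levels in ascites were of the same order, as the first tap had 248, 51.7 and 413 CPM and the second tap 185, 359 and 202 CPM. Subcutaneous tumours 2 and 3 had 14 and 188 CPM, and tumours on the intestine had 11.8, 34.9 and 129.6 CPM. The lowest tumour was thus below the cell line, and the healthy intestine had 8.22 CPM.

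Cyp11a1, the side-chain cleavage enzyme that begins steroid synthesis (ENSMUSG00000032323), had 4.96, 3.59 and 11.3 CPM in the orthotopic tumours, against 1443 CPM in healthy ovary and 0.053 CPM in the cell line. It was at 0.46 ± 0.287% of the ovary level (SD, n = 3), although Star, which acts just before it in the pathway, was above the ovary level. Subcutaneous tumour 3 reached 12.8 CPM and subcutaneous tumour 2 had 0.608 CPM. Ascites ranged from 0.114 to 1.49 CPM (n = 6), and tumours on the intestine had 0, 0.17 and 0.427 CPM.

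The oocyte genes were low in every tumour. Nobox, an oocyte homeobox factor (ENSMUSG00000029736), had 0.208, 0.0665 and 0.263 CPM in the orthotopic tumours, against 5.66 CPM in healthy ovary and 0.318 CPM in the cell line, so the tumours did not exceed the line from which they grew. Gdf9, an oocyte growth factor (ENSMUSG00000018238), had 0.649, 0.898 and 0.474 CPM in the orthotopic tumours, against 26.7 CPM in healthy ovary and 0.265 CPM in the cell line. The healthy intestine had 2.26 CPM of Gdf9, more than any tumour. Zp3, a zona pellucida protein (ENSMUSG00000004948), had 0.104, 0 and 0 CPM in the orthotopic tumours, against 18.4 CPM in healthy ovary and 0.053 CPM in the cell line. Its 4 orthotopic counts gave 0.204% of the ovary level (exact 95% interval 0.0555 to 0.526%, counting error only).

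**Figure D2:**
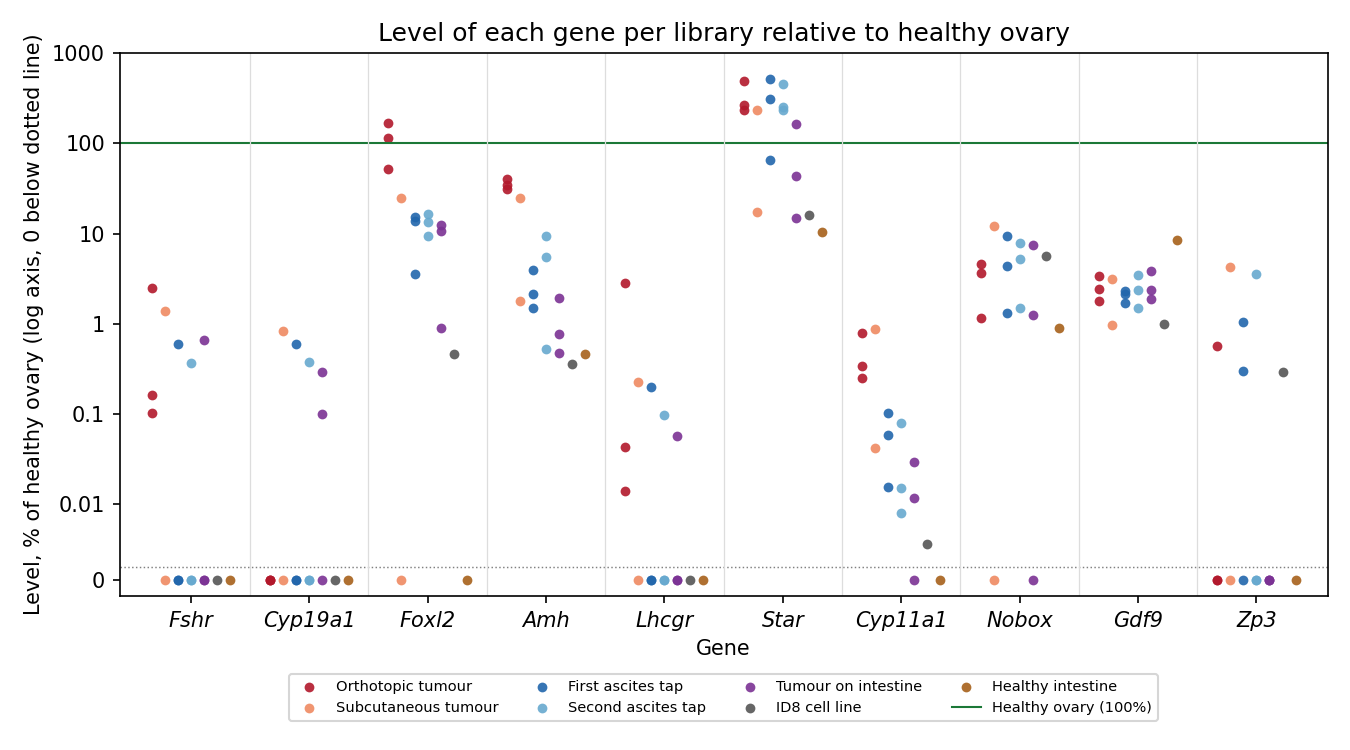
Level of each gene in each library other than ovary, in percent of the healthy ovary library (log axis, with 0 below the dotted line). Points are libraries, coloured by group; the orthotopic points are at 51.7% to 166% for Foxl2 and at 30.9% to 40.7% for Amh, while Cyp11a1 stays under 1% in every tumour.

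The first comparison set the follicle genes in orthotopic tumours against those in healthy ovary. Cyp11a1 and Gdf9 were lower in the orthotopic tumours by edgeR's quasi-likelihood test, and no gene of the 10 was higher. Cyp11a1 had a log2 fold change of -7.76 ± 1.41 (SE; adjusted p = 0.0346) and Gdf9 one of -5.30 ± 0.695 (adjusted p = 0.00954), both lower in 3 of 3 tumours. The 2 of 10 genes stand against 0.591% of all genes called lower, and 0.00882% of all genes were called higher. At an unadjusted p under 0.05, 7 of the 10 were lower, as were 8.26% of all genes. Among the 7, Cyp19a1, Zp3 and Nobox passed the filter only through the ovary and libraries of broad low counts. They were tested because the ovary level was high, so their lower values in the tumours were favoured in advance. DESeq2 called the same 2 genes, where it called 2.67% of all genes lower, and so did edgeR without the 3 libraries of broad low counts, where 7 of the 10 passed the filter and 1.22% of all genes were called lower. The median log2 fold change of the 10, with Cyp19a1, Zp3 and Nobox included, was -6.00, against -0.07 over all genes tested.

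The other lower values missed the adjusted threshold, with adjusted p = 0.0642 for Cyp19a1, 0.197 for Fshr, 0.279 for Lhcgr, 0.188 for Zp3 and 0.261 for Nobox. Foxl2 had a log2 fold change of 0.15 ± 1.63 (adjusted p = 0.994), Amh of -1.49 ± 1.22 (adjusted p = 0.707) and Star of 1.72 ± 1.52 (adjusted p = 0.737), so neither a rise nor a fall of these 3 was detectable against a single ovary. Both calls were lost when any of the 3 orthotopic tumours was left out, with adjusted p from 0.119 to 0.192 for Cyp11a1 and from 0.0543 to 0.0839 for Gdf9. In bulk tissue, fewer cells of a type and less RNA per cell cannot be told apart.

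Against the cell line, the orthotopic tumours had more Amh, Foxl2, Star and Cyp11a1, but none of the 10 passed edgeR's adjusted threshold, against 2.37% of all genes called higher. Those 4 genes were the ones at an unadjusted p under 0.05, where 13.3% of all genes were higher. Their log2 fold changes were 6.58 ± 2.02 for Amh (adjusted p = 0.0939), 7.86 ± 2.68 for Foxl2 (adjusted p = 0.122), 4.35 ± 1.81 for Star (adjusted p = 0.194) and 6.86 ± 2.36 for Cyp11a1 (adjusted p = 0.125). DESeq2 called the same 4 genes higher, where it called 14.3% of all genes. Without the 3 libraries of broad low counts, edgeR called Amh, Foxl2 and Cyp11a1, against 4.75% of all genes. Fshr and Lhcgr, at 0 in the line, were at least 3.9-fold and at least 37.9-fold higher in the orthotopic tumours, with most counts in tumour 3 for Fshr and in tumour 2 for Lhcgr.

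The orthotopic tumours were then set against the mean of the 4 other tumour and ascites groups. Amh was higher in the orthotopic tumours, with a log2 fold change of 3.25 ± 0.663 (adjusted p = 0.0321), and was the 1 gene of the 10 called, against 1.72% of all genes called higher and 1.16% lower. DESeq2 called Amh, Foxl2 and Cyp11a1 higher, against 6.35% of all genes. It gave Lhcgr no adjusted p in this or any other comparison, so Lhcgr could not be called by it. By edgeR, Foxl2 (3.33 ± 0.817, adjusted p = 0.0508) and Cyp11a1 (2.86 ± 0.738, adjusted p = 0.0541) lay just outside the threshold. Lhcgr (4.55 ± 1.38, adjusted p = 0.077) was further from it, with 313 of its 321 orthotopic counts in tumour 2. Star differed by 0.94 ± 0.728 (adjusted p = 0.44), and the oocyte genes Gdf9, Nobox and Zp3 by 0.14, -0.43 and -0.89, with adjusted p from 0.846 to 0.974.

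Without the 3 libraries of broad low counts, 4 of the 10 genes were called higher in the orthotopic tumours, against 6.46% of all genes: Amh at 4.40, Foxl2 at 5.92, Cyp11a1 at 4.39 and Lhcgr at 8.97 on the log2 scale, with adjusted p = 0.00729, 0.00726, 0.00591 and 0.0429 by edgeR. The Lhcgr value depended on orthotopic tumour 2, without which the log2 fold change over all other libraries was -0.37 (adjusted p = 0.944). Subcutaneous tumour 3, 1 of the 3 libraries left out, had the most Amh, Foxl2 and Cyp11a1 of the 11 other tumour and ascites libraries. Its levels were 10.8, 5.74 and 12.8 CPM, and the highest left in the fit were 2.42, 3.18 and 0.849 CPM. The larger differences for these 3 genes thus rest in part on leaving it out, a choice made after seeing the data. With all libraries, the Amh call was lost when any of the 3 orthotopic tumours or tumour on the intestine 2 was left out, with adjusted p from 0.0573 to 0.14.

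**Figure D3:**
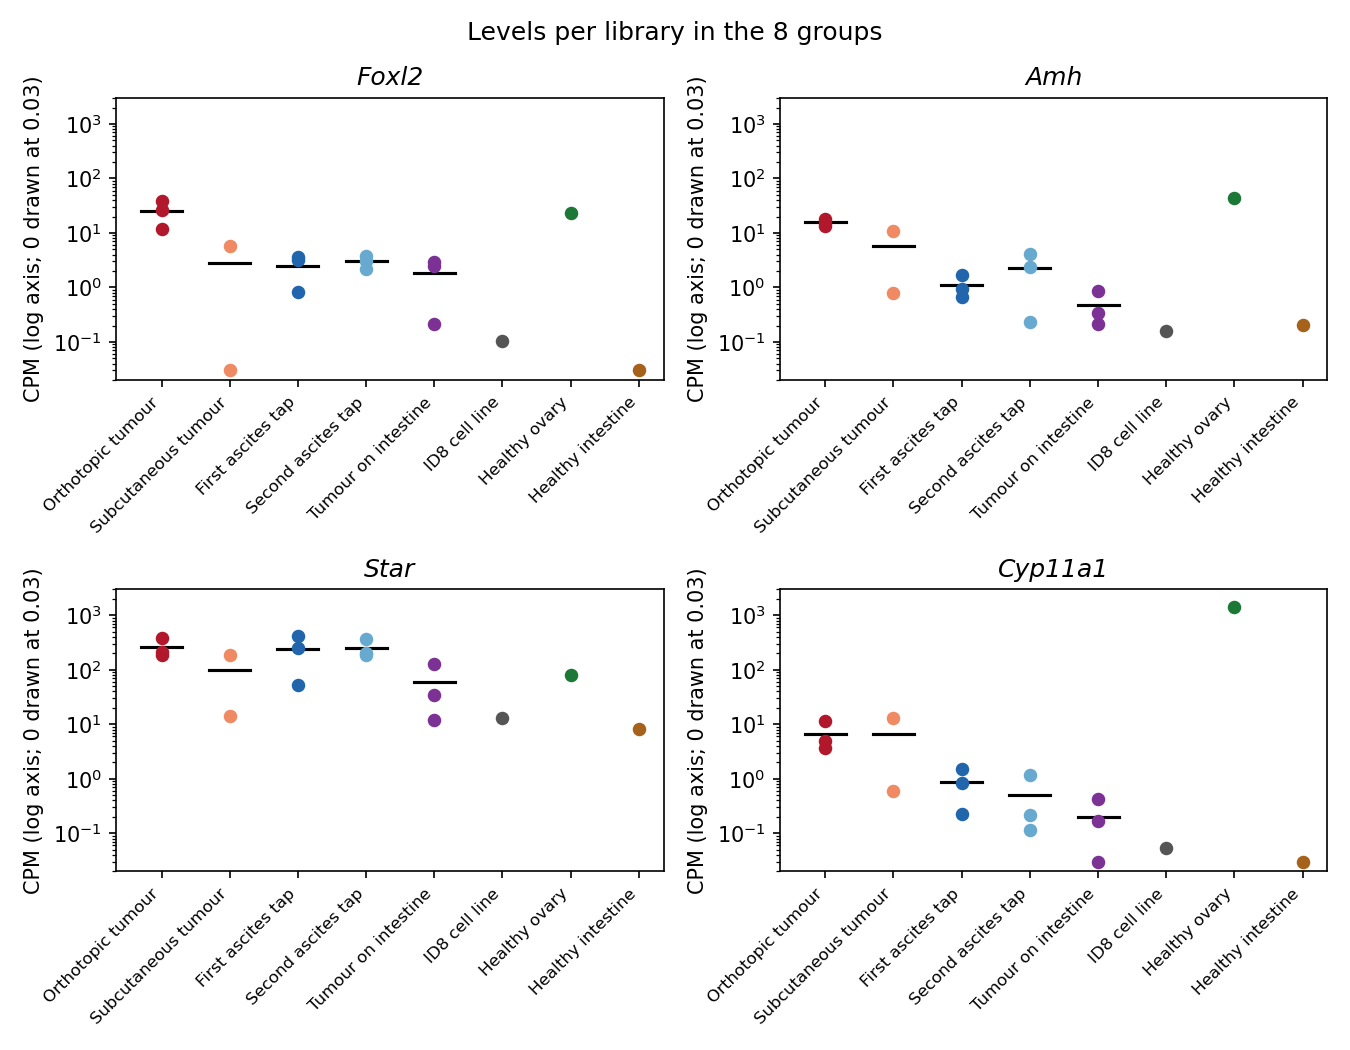
CPM of Foxl2, Amh, Star and Cyp11a1 in each library of the 8 groups (log axis, with 0 drawn at 0.03). Points are libraries and bars are means of replicated groups; the orthotopic tumours stand above all other tumour and ascites libraries for Foxl2 and Amh, while for Star they overlap the ascites libraries.

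Site by site, the tumours on the intestine had the calls among the 10 genes by edgeR. Amh (-4.97 ± 1.12, adjusted p = 0.0134) and Cyp11a1 (-4.78 ± 1.26, adjusted p = 0.0261) were lower in the tumours on the intestine, against 5.13% of all genes called lower and 10.4% higher, and Foxl2 was at -3.75 ± 1.29 (adjusted p = 0.0679). Each of the 2 calls was lost when tumour on the intestine 1 or 2 was left out, and the Cyp11a1 call also when any orthotopic tumour was left out. DESeq2 called Amh, Foxl2 and Cyp11a1 lower, against 10% of all genes, and so did edgeR without the 3 libraries of broad low counts, against 6.84%. The 5 intestinal epithelium markers summed to 2337 to 7117 CPM in the tumours on the intestine, against 4.72 to 6.26 CPM in the orthotopic tumours, the 5 smooth muscle markers to 945 to 1397 CPM, against 70.2 to 109.7 CPM, and the 5 T cell markers to 41.5 to 161 CPM, against 2.47 to 6.7 CPM. The part of these tissues in the differences was not tested.

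None of the 10 genes was called by edgeR between either ascites tap and the orthotopic tumours, where 0.891% of all genes were called lower and 0.688% higher at the first tap, and 0.578% lower and 0.516% higher at the second. At an unadjusted p under 0.05, 3 were lower at the first tap, where 6.9% of all genes were, and 4 at the second, where 6.14% were. DESeq2 called Amh and Foxl2 lower at the first tap, against 4.45% of all genes, and Amh and Cyp11a1 lower at the second, against 4.58%. Star differed by -0.15 ± 0.961 at the first tap and -0.08 ± 0.961 at the second (adjusted p = 0.956 and 0.978). Without the libraries of broad low counts, edgeR called Amh and Cyp11a1 lower at the first tap, against 3.25% of all genes, and Cyp11a1 at the second, against 1.13%. The 5 macrophage markers summed to 687 to 4886 CPM at the first tap and 1330.4 to 2348 CPM at the second, against 162 to 231 CPM in the orthotopic tumours, and the part of these cells in the differences was not tested.

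Between subcutaneous and orthotopic tumours, none of the 10 genes was called by edgeR or DESeq2 and none had an unadjusted p under 0.05, where edgeR called 0% of all genes lower and 0.0132% higher, and DESeq2 2.33% lower and 8.06% higher. The 2 subcutaneous tumours were far apart: tumour 3 had 10.8 CPM of Amh, 12.8 CPM of Cyp11a1 and 188 CPM of Star, and tumour 2 had 0.782, 0.608 and 14 CPM. Without subcutaneous tumour 3 and the 2 ascites libraries, 1 gene was called lower, Foxl2 (adjusted p = 0.0278), against 0.928% of all genes, and the subcutaneous group was then a single library. All the comparisons, also those with the ovary and the cell line, share the orthotopic libraries, so their values are not independent.

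A further 40 ovary genes in 3 lists were read beside the 10. Of 15 granulosa and theca genes, 5 averaged more than 100% of the ovary level in the orthotopic tumours, 5 were between 10 and 100%, and 5 were under 10%. Those above were the anti-Müllerian hormone receptor Amhr2, the nuclear receptor Nr0b1, the factors Gata4 and Wt1, and Kitl, the ligand of the Kit receptor. Amhr2 had 1024, 853 and 555 CPM in orthotopic tumours 1, 2 and 3, against 61.6 CPM in healthy ovary and 20.4 CPM in the cell line. In the 11 other tumour and ascites libraries Amhr2 ranged from 6.3 to 892 CPM (median 403) and Gata4 from 10.1 to 348 CPM (median 195). Of the 5 genes, only Nr0b1 was higher in all 3 orthotopic tumours than in each of these libraries, as 2.37% of all genes were. Wt1 was as high in the line, at 577 CPM, as in the orthotopic tumours, at 625, 345 and 561 CPM. Fst, the activin-binding follistatin, and Inhba, an activin and inhibin subunit, were lower in the orthotopic tumours than in ovary, at -5.26 ± 0.600 (adjusted p = 0.00679) and -6.01 ± 1.09 (adjusted p = 0.0346), the 2 of 15 called, where 0.591% of all genes were called lower and 0.00882% higher.

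Among 11 steroid synthesis genes the median was 13.3% of the ovary level. Hsd3b1, which makes progesterone from pregnenolone, had 1.06, 11.6 and 3.05 CPM in the orthotopic tumours, against 1863 CPM in healthy ovary. Nr5a1, the nuclear receptor SF-1 that drives many steroidogenic genes, had 139, 135 and 79.7 CPM in the orthotopic tumours, against 70.5 CPM in healthy ovary and 44.2 CPM in the cell line. Fdx1 (-3.36 ± 0.558, adjusted p = 0.0259) and Srd5a1 (-2.91 ± 0.472, adjusted p = 0.0241) were the 2 of 11 called lower than in ovary, against the same 0.591% of all genes. Of 14 oocyte genes, 12 were under 10% of the ovary level, with a median of 1.12%, and Padi6, a component of the egg's cytoplasmic lattices, was the 1 of 13 tested that was called lower, again against 0.591% (-8.03 ± 1.48, adjusted p = 0.037). When an orthotopic tumour was left out, no list gene but Fst was called against ovary, and Fst was lost too without tumour 2. Against the cell line, edgeR called 1 of the 15 granulosa and theca genes higher in the orthotopic tumours, against 2.37% of all genes. It was Serpine2 (10.7 ± 2.03, adjusted p = 0.0211), and no gene of the other lists was called.

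Against the other tumour sites, where 1.72% of all genes were called higher and 1.16% lower, 4 of 11 steroid synthesis genes were higher in the orthotopic tumours: Hsd17b1 (4.13 ± 0.544, adjusted p = 0.00721), Hsd3b1 (5.45 ± 1.01, adjusted p = 0.0231), Scarb1 (1.64 ± 0.321, adjusted p = 0.0285) and Cyp17a1 (3.26 ± 0.700, adjusted p = 0.0364). Of the 15 granulosa and theca genes, 4 were higher, namely Serpine2, Nr0b1, Inha and Kitl, and Insl3, at 0 to 0.105 CPM in the orthotopic tumours, was lower. No oocyte gene of 13 was called. Bmp15 was at 3.16 ± 1.1 (adjusted p = 0.108), and subcutaneous tumour 3 had 7.85 CPM of it, the most of the 11 other tumour and ascites libraries. Without the libraries of broad low counts the highest was 0.107 CPM. The Bmp15 call in that fit, given below, thus rests in part on leaving out subcutaneous tumour 3, a choice made after seeing the data. Leaving out orthotopic tumour 2 ended every one of these calls in both lists, and without orthotopic tumour 1 Hsd17b1 alone was called. Without the libraries of broad low counts, 6 of 11 steroid synthesis genes, 7 of 15 granulosa and theca genes and 1 of 5 oocyte genes tested, Bmp15, were called higher, against 6.46% of all genes, and Insl3 was called lower, against 4.33%.

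In tumours on the intestine compared with orthotopic tumours, 6 of the 11 steroid synthesis genes were lower and 2 were higher, where 5.13% of all genes were called lower and 10.4% higher. Hsd17b1 (-5.92 ± 0.967, adjusted p = 0.00264) and Scarb1, which takes up cholesterol from lipoproteins (-2.41 ± 0.461, adjusted p = 0.00601), were among those lower, and Hsd17b7 (2.46 ± 0.395, adjusted p = 0.00231) and Srd5a1 (1.70 ± 0.379, adjusted p = 0.0126) were higher. The 11 genes summed to 178 to 216 CPM in tumours on the intestine and 219.5 CPM in healthy intestine. The part of host intestine in the values of both lists was not tested. Of the 15 granulosa and theca genes, 2 were lower and 2 were higher. Inha, the inhibin alpha subunit (-6.26 ± 1.38, adjusted p = 0.0123), and Inhbb, an activin and inhibin subunit (adjusted p = 0.028), were lower, and Ihh, a hedgehog ligand (6.51 ± 1.23, adjusted p = 0.00566), and Insl3 (3.08 ± 0.891, adjusted p = 0.0358) were higher. Of the fits that left out 1 library, all called Ihh, and the Inha call was lost only without tumour on the intestine 2. Inhbb was called only without tumour on the intestine 3. Insl3 was called only in that fit and in the fit without orthotopic tumour 3. At both ascites taps Hsd17b1, Fst and Serpine2 were lower than in the orthotopic tumours, with adjusted p from 0.0242 to 0.0466. That was 1 of 11 steroid synthesis genes and 2 of 15 granulosa and theca genes at each tap. Over all genes, 0.891% were called lower at the first tap and 0.578% at the second. Leaving out 1 library left 2 to 5 of the steroid synthesis genes and 0 to 3 of the granulosa and theca genes lower in tumours on the intestine. At the first tap it left 0 to 1 and 0 to 2 lower. At the second tap Hsd17b1 and Serpine2 were lost in each of the 6 fits, and Fst was called in 1 of them, the fit without orthotopic tumour 3. With all libraries, none of these lists had an edgeR call between subcutaneous and orthotopic tumours. DESeq2 called 2 of the 15 granulosa and theca genes, Fst and Insl3, higher in subcutaneous tumours, against 8.06% of all genes. The log2 fold changes in subcutaneous tumours were -1.76 ± 0.888 for Hsd17b1, -2.75 ± 1.25 for Nr5a1 and -2.74 ± 1.37 for Inha. Those of Nr0b1, Insl3 and Bmp15 were -2.25 ± 1.29, 4.60 ± 0.958 and 1.27 ± 1.58. Bmp15 was lower, not higher, without the 3 libraries of broad low counts. Without subcutaneous tumour 3 that group was a single library, so calls of list genes there are not given.

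**Figure D4:**
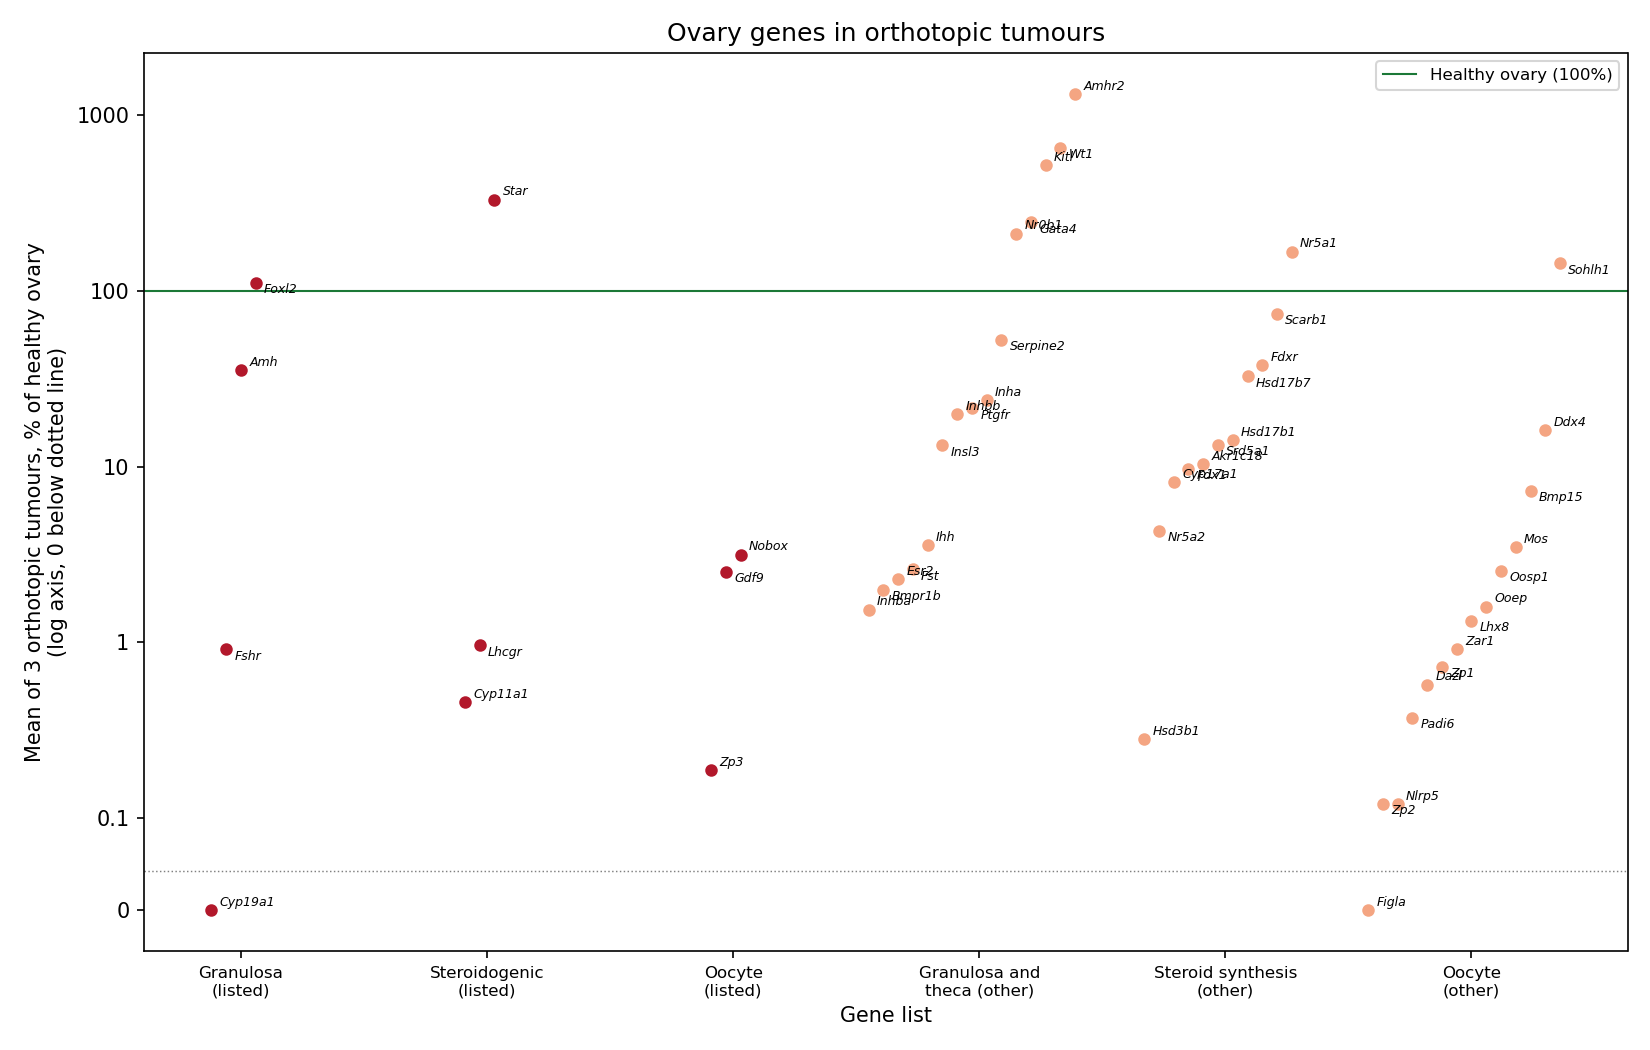
Mean level of each gene in the 3 orthotopic tumours, in percent of healthy ovary (log axis, with 0 below the dotted line), for the 10 genes (left, dark) and the 3 lists of other ovary genes (right, light). The oocyte genes lie mostly under 10%, apart from Ddx4 and Sohlh1, and Sohlh1 rests on an ovary level of 0.149 CPM; granulosa and theca genes spread from 1.54% for Inhba to 1316% for Amhr2.

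Markers of other tissues around the ovary were read in the same libraries. The 5 oviduct epithelium markers summed to 23.5, 4.69 and 54.4 CPM in orthotopic tumours 1, 2 and 3, against 1483 CPM in healthy ovary. Orthotopic tumour 3 had the most, with 21.1 CPM of Ovgp1 and 17.1 CPM of the ciliated cell factor Foxj1, and it also had the most Fshr and Cyp11a1 and the least Foxl2 of the 3. Against ovary, the log2 fold changes were -7.29 for Ovgp1, -6.02 for Pax8, -3.45 for Foxj1 and -6.10 for Wfdc2, but 0.226 for Muc16. Muc16 also reached 192 CPM in ascites, so this sum does not measure oviduct alone. The 5 adipocyte markers summed to 176, 349.6 and 40.2 CPM in the orthotopic tumours, against 929.6 CPM in ovary, and reached 3278 CPM in subcutaneous tumour 2. The 5 smooth muscle markers summed to 70.2 to 109.7 CPM in the orthotopic tumours, against 622 CPM in ovary. The 4 adrenal cortex markers, whose tissue also makes steroids, summed to 0.263 to 1.6 CPM in the orthotopic tumours, against 21.5 CPM in ovary, with Cyp11b2 at 0 in both. The 5 macrophage markers summed to 162 to 231 CPM and the 5 T cell markers to 2.47 to 6.7 CPM in the orthotopic tumours, against 197 and 11.4 CPM in ovary. The part of these tissues in the results was not tested.

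The genes most like the mean of the 10 over the 17 libraries, by Pearson's r on log2(CPM + 1), were Slc38a5 (r = 0.9532), Calb1, Txndc2, Hsd3b1, Cyp17a1, Esr2, Slc38a3 and Ano5 (r = 0.9401). Each was highest in the ovary library, which sets these values. Foxl2 was most like Tnni3 (r = 0.9426), Inha (r = 0.9296) and Adgrl1 (r = 0.9241). Tnni3 averaged 30.4 ± 18 CPM in the orthotopic tumours (SD, n = 3), against 24 CPM in ovary and 0.0795 CPM in the cell line. Star was most like Rasl10a (r = 0.962), Olfr1033 and Kcnd2.

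Some of the 10 genes lie beside or across another gene, and reads could be shared. The libraries were directional, but no source used here gives the strand setting of the counting. Foxl2os, which overlaps Foxl2 on the opposite strand, had 1.82, 6.48 and 4.21 CPM in the orthotopic tumours, against 9.61 CPM in ovary and 0 in the cell line, and reads of the pair could not be told apart without strand. Sf3a2, a splicing gene 319 bases from Amh on the same strand, had 104, 80.1 and 61.8 CPM in the orthotopic tumours, against 78.1 CPM in ovary and 140.1 CPM in the cell line. The line thus had the most Sf3a2 and next to no Amh. Jsrp1, 848 bases from Amh on the opposite strand, had 6.85, 5.05 and 4.87 CPM in the orthotopic tumours, against 5.91 CPM in ovary and 0.265 CPM in the cell line, and at most 3.82 CPM in the other tumour and ascites libraries. Like Amh, it was higher in the 3 orthotopic tumours and the ovary than in every other library, though subcutaneous tumour 3 had 1.18 CPM of Jsrp1 beside 10.8 CPM of Amh. Gm17322, which overlaps Cyp11a1 on the same strand, had at most 0.0789 CPM in any library. Gldnos, 468 bases from Cyp19a1 on the same strand, had at most 0.0994 CPM. Whether reads were shared with any neighbour was not tested. Ash2l, 14 bases from Star on the opposite strand, ranged from 35.4 to 102 CPM over all libraries, and Uqcrq, 192 bases from Gdf9, from 32.8 to 181 CPM.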

How the data were processed

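Directional RNA-seq libraries were made from Trizol-extracted total RNA, per the labels' protocols. The submitters' processing notes name HISAT, HISAT2, featureCounts and DESeq2, without versions, and the builds hg19 and mm39, with no role for each, so no coordinates were taken from the count table. The authors deposited raw read counts for each Ensembl gene, and 39055 of 43629 genes had a count. Of the table's columns, 1 matched no sample and was not used. Gene names were looked up by identifier, with 42462 matched.

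The tests used edgeR 4.0.16, limma 3.58.1 and R 4.3.3. Genes over 0.5 CPM in at least 2 libraries (22671) were tested in 1 quasi-likelihood fit of all 17 libraries, with robust dispersion, TMM (trimmed mean of M values) scaling and 9 residual degrees of freedom. P-values were adjusted by Benjamini and Hochberg over all genes tested, with a threshold of 0.05. SEs were derived from the F statistic. DESeq2 1.42.0 was an alternative, as were scaling by library size, other filters, a replicate block and leaving out each library; leaving out the 3 libraries of broad low counts was chosen after seeing the data. The tests were run on simulated counts with less spread than these data and with large changes in genes well above the filter. That run does not show how the tests perform for genes with few counts. Replicates differed by far more than counting noise (dispersion index 89.1 to 599, where 1 is counting noise).

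The 10 genes, the lists and the tests were chosen with earlier results of these data known. Named genes were the 10, the 4 of each list with the most CPM in ovary, up to 4 of each list called in the first 3 comparisons by smallest p, the first 2 of each marker list, the genes most like the 10, and neighbours within 1 kb. Genes named for being above the ovary level (Amhr2, Nr0b1, Gata4, Wt1, Kitl, Nr5a1), and list genes named in the comparisons with tumours on the intestine, subcutaneous tumours and ascites, were chosen after their values were seen. So were the oviduct markers Foxj1, Wfdc2 and Muc16, which were not among the first 2 of their list.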

Additional observations from a re-analysis of the deposited data

How the results depend on the processing

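Comparisons with the ovary and the cell line rest on 1 library each, and the replicated groups have 2 or 3. The mean levels of the 10 genes in percent of ovary stayed within 1 SD under library size scaling and DESeq2 size factors. Leaving out 1 orthotopic tumour gave 0.0286 to 1.44% for Lhcgr, 0.134 to 1.32% for Fshr and 0 to 0.283% for Zp3.

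Counts of genes called are over all genes tested. With library size alone, 460 genes were called against the cell line, 367 against the other sites, 6 in subcutaneous tumours, 83 at the first tap and 17 at the second, and of the 10 genes 1 was called against ovary (0.397% of all genes lower) and 0 against the other sites (1.02% higher). That scaling moved the median of all genes by 0.14 against the cell line and -0.29 in tumours on the intestine (log2). It changed the share of calls that were higher to 86.7%, against 74% with TMM, for the cell line, to 22.9% against 43.6% at the first tap, to 11.8% against 47.2% at the second and to 54.6% against 66.9% in tumours on the intestine. With the filter at 1 library, 3 of the 10 were called against the other sites (2.13% of all genes higher), and 0 genes in subcutaneous tumours. With no filter, 1 of the 10 was called against ovary (0.394% lower) and 1 in tumours on the intestine (1.97% lower), and 140 genes in subcutaneous tumours.

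DESeq2 called 780 genes against ovary, 3809 against the cell line, 3978 against the other sites, 2300 in subcutaneous tumours, 2591 and 2021 at the 2 taps and 5983 in tumours on the intestine; of the 10 it called 4 against the cell line, 3 against the other sites, and 2 at each tap. Without the 3 libraries of broad low counts, 265 genes were called against ovary, 1219 against the cell line (3 of the 10), 2253 against the other sites (4 of the 10), 1113 in subcutaneous tumours (1 of the 10) and 1352 at the first tap (2 of the 10), and 1 of the 10 at the second tap. Why these counts differ was not tested.

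Same-numbered samples did not deviate together in every pair (r from -0.557 to 0.441 between the 2 taps), so the numbers were not taken to pair samples. With a replicate block, 2 of the 10 were called against the other sites (1.45% of all genes higher), 8 genes in subcutaneous tumours, 29 at the first tap and 18 at the second.

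Leaving out 1 library at a time gave 3 to 17 genes and 0 of the 10 against ovary, 309 to 391 genes against the cell line, 14 to 2135 genes and 0 to 4 of the 10 against the other sites, 0 to 987 genes and 0 to 1 of the 10 in subcutaneous tumours, 18 to 793 genes at the first tap, 1 to 76 at the second, and 1211 to 4085 genes and 0 to 2 of the 10 in tumours on the intestine. Without orthotopic tumour 2, 3 log2 fold changes reversed: Foxl2 against ovary (-0.217, and up to 0.55 without orthotopic tumour 3), Lhcgr against the other sites (-0.372, and up to 6.33 without subcutaneous tumour 3) and Lhcgr at the second tap (0.0356, and down to -9.75 without second tap 1).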
